A study of Mus musculus with 12 samples.

Results

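Interferon-high Dpp4+ Pi16+ fibroblasts of the mouse mammary gland are described here. They were 2147 of the 46257 cells that passed the quality limits in 12 libraries, and 2147 of 11101 fibroblasts with clear Pi16 and Dpp4 counts (19.3%). The cells were chosen by their own unique molecular identifier (UMI) counts, that is, by the number of distinct captured RNA molecules. A fibroblast had at least 20 UMIs of Col1a1, Col1a2 and Col3a1 together and none of Ptprc, Pecam1 or Epcam. The narrower gate then asked for at least 20 UMIs of Pi16 and 2 of Dpp4, fewer than 10 of Fabp4, fewer than 2 of Cilp and no joint detection of Pgr and Greb1, and it held 9374 cells. Cells of this gate with at least 5 UMIs of Ifit1, Ifit3 and Isg15 together were called interferon-high, and the remaining 7227 cells interferon-low.

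The study compared ovarian hormones and polybrominated diphenyl ethers (PBDEs, flame retardants) in a model of menopause. Female C57BL/6J mice received 4-vinylcyclohexene diepoxide (VCD), a chemical that destroys small ovarian follicles, at 160 mg/kg/day for 15 days, and glands were taken at 43 weeks of age. There was 1 library for each of 12 groups, and the number of animals behind a library is not given in the sources used here. All groups but Intact carried the VCD treatment. VCD_Vehicle received sesame oil, and VCD_Vehicle_NormEnv was a second vehicle group with possible exposure to PBDEs from plastic cages. VCD_E2 received 17β-estradiol (E2, 1 µg/animal/day for 1 week), VCD_E2_P4 received E2 and progesterone (P4, 1 mg/animal/day), and VCD_E2_ICI received E2 with a single 5 mg dose of the estrogen receptor degrader ICI. There were 6 groups with PBDEs in the food, either at a low dose for 20 weeks (0.05, 0.0028 and 0.0063 mg/kg/day of PBDE-47, PBDE-100 and PBDE-153: VCD_Low_PBDE, VCD_Low_E2, VCD_Low_E2_P4) or at a high dose for 1 week (1, 0.056 and 0.126 mg/kg/day of the same 3 compounds: VCD_High_PBDE, VCD_High_PBDE_E2, VCD_High_PBDE_E2_P4), so the dose of PBDEs and its duration changed together and cannot be told apart. The 12 libraries held 2497 to 10006 barcodes and 41737881 to 109224969 UMIs each.

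Interferons are secreted signals that cells release on sensing viral or self nucleic acids. Type I interferons bind a receptor of the Ifnar1 and Ifnar2 chains, whose kinases activate a complex with Irf9 that binds a DNA element called the interferon-stimulated response element. The genes that follow include Ifit1 and Ifit3, whose products bind foreign RNA, and Isg15, a ubiquitin-like modifier. Fibroblasts with Dpp4 and Pi16 line the connective tissue of many organs and are regarded as a reservoir of progenitor-like stromal cells.

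The start regions of the 3 genes used in the rule are shown because the element can be read in them directly. Capitals mark each match to GAAA, any 2 bases and GAAA, read on either strand, and overlapping matches in Isg15 run together. Each stretch is the 200 bases before the RefSeq start on GRCm38.p6, 5′ to 3′ on the strand of the gene. They lie at chr19:34640689-34640888 (plus strand) for Ifit1, chr19:34583329-34583528 (plus strand) for Ifit3 and chr4:156200819-156201018 (minus strand) for Isg15.
Ifit1: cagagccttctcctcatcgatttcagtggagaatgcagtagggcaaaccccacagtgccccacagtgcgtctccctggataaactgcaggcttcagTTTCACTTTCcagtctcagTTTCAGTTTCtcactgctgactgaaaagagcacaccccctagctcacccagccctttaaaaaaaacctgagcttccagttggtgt
Ifit3: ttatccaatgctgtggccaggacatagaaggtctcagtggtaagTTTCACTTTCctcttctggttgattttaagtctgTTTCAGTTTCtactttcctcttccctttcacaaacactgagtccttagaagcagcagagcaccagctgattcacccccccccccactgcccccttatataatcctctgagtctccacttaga
Isg15: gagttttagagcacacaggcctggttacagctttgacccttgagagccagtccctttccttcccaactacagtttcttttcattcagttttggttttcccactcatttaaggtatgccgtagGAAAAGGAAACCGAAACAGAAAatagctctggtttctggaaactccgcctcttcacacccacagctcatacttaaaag
Ifit1 and Ifit3 each held 2 matches on the opposite strand, and Isg15 held 3 on its own strand. Over windows of 300 bases (250 before the start and 50 after), the element was present for 3.99% of 27025 genes, so a match is a description of the sequence and no more.

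Some barcodes were shared between libraries, which is a limit on all values below. A total of 740 barcodes occurred in more than 1 library. The names of the deposited files carry 1 of 2 codes, and any 2 of the 5 libraries with the first code (Intact, VCD_Vehicle, VCD_E2, VCD_E2_P4 and VCD_Low_PBDE) shared 95 to 185 barcodes, against 1 to 20 for pairs across the codes and 2 to 84 for pairs within the second. They touched 41 of the 2147 interferon-high cells, and each main result was also computed without them. Of the interferon-high cells 3.68% were marked as possible doublets, against 2.56% of the interferon-low cells, and VCD_Low_E2_P4 held 40 of these 79 interferon-high cells. The percentage marked in a library was preset from its barcode number, which was highest in VCD_Low_E2_P4 (10006), so these values depend on that quota.

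Pdgfra, the receptor used as a general fibroblast marker and no part of the rule, was detected in 96.1% of interferon-high cells. Of the genes the rule used, the median counts were 85 UMIs for Pi16 and 13 for Dpp4, so few cells sat near those limits: 18 had exactly 2 Dpp4 UMIs and 24 had 20 or 21 Pi16 UMIs. The limit on the interferon genes cut through a continuous range, with 379 cells of the gate at 4 UMIs, just outside, and 318 at 5, just inside. The median interferon-high cell had 10 UMIs of the 3 genes and the highest had 324, and 61.2% of the cells had all 3. Ifit1 was detected in 89.5% of them, Ifit3 in 74.0% and Isg15 in 91.5%, values that the rule fixed in part. Interferon-high cells were deeper, with a median of 22245 UMIs against 18319 in interferon-low cells. Mitochondrial UMIs were 2.11% and 2.56%.

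Interferon-high cells were present in every library, and their share of the Pi16+ Dpp4+ fibroblasts ranged from 4.21% to 35.0%. Without hormone the share was 12.5% in VCD_Vehicle (95% exact binomial interval 10.1 to 15.1), 4.21% in VCD_Low_PBDE (3.20 to 5.42) and 11.9% in VCD_High_PBDE (9.93 to 14). With E2 it was 30.7% in VCD_E2 (27.2 to 34.3), 29.7% in VCD_Low_E2 (26.8 to 32.9) and 16.2% in VCD_High_PBDE_E2 (13.5 to 19.4). With E2 + P4 it was 35.0% in VCD_E2_P4 (32.3 to 37.8), 28.4% in VCD_Low_E2_P4 (26.1 to 30.8) and 24.2% in VCD_High_PBDE_E2_P4 (21.2 to 27.5). All 6 libraries with E2 therefore stood above the 3 without hormone at matched PBDE exposure, and VCD_High_PBDE_E2 was the nearest to them. The intervals cover counting error only.

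The remaining groups had shares of 10.3% in Intact (8.15 to 12.8), 16.1% in VCD_Vehicle_NormEnv (14 to 18.5) and 7.44% in VCD_E2_ICI (5.54 to 9.75). The last of these received the same E2 as VCD_E2, with its 30.7%, but the 2 libraries carry different file codes. These groups have 1 library each, so the differences carry no test over animals. The interval of VCD_Vehicle_NormEnv overlapped those of VCD_Vehicle and VCD_High_PBDE_E2.

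**Figure D1:**
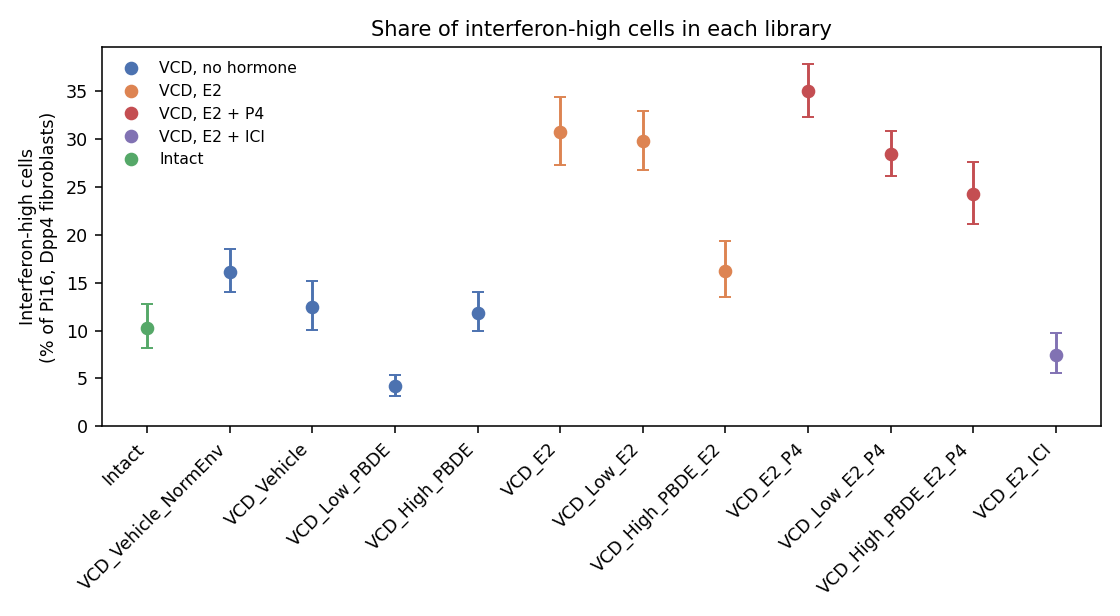
The y axis gives interferon-high cells as a percentage of all Pi16+ Dpp4+ fibroblasts of a library, the x axis the 12 libraries, and bars are 95% exact binomial intervals. The 6 libraries with E2 or E2 + P4 lay between 16.2% and 35.0%, and the Intact, ICI and 4 hormone-free VCD libraries between 4.21% and 16.1%.

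Over the 9 VCD libraries of the layout of hormone by PBDE, the share was 17.9 percentage points higher with E2 (with or without P4) than without hormone. All 6 libraries with E2 were higher than the hormone-free library of their PBDE level, although at a limit of 10 UMIs VCD_High_PBDE_E2 (7.10%) was below VCD_High_PBDE (7.35%). An exact two-sided permutation test within PBDE level gave p = 0.037, the smallest p that its 27 arrangements allow, and 0.148 after Benjamini-Hochberg adjustment over the 4 contrasts of shares. Without PBDE, where all 3 libraries have the first file code, the mean of both E2 libraries was 20.4 points above none, and with high PBDE, where all 3 have the second, it was 8.39 points above. At low PBDE the hormone-free library had the first code and both E2 libraries the second, so code and E2 cannot be told apart there. The library with E2 alone stood 18.2 points above its hormone-free counterpart without PBDE, 25.5 with low PBDE and 4.39 with high PBDE. Each value compares single libraries. In the same order, Pi16+ Dpp4+ fibroblasts of the E2 libraries had median depths of 24048, 24280 and 18306.5 UMIs, against 19467.5, 19456 and 15750. The limit of 5 UMIs took no account of depth. At an equal depth of 10000 UMIs, these pairs stood at 16.3% against 5.74%, 16.8% against 1.66% and 9.09% against 8.75%. Without thinning, the library with E2 + P4 differed from that with E2 alone by 4.31, -1.35 and 7.99 points in the same order (mean 3.65, exact permutation p = 0.5). Low PBDE against none gave a mean of -5.27 points and high PBDE against none -8.60 points, each with an exact permutation p = 0.25, the smallest that 3 pairs allow. All 3 libraries without PBDE have the first file code and all 3 with high PBDE the second, so high PBDE and file code cannot be told apart. The E2 difference was 10.4 points at a limit of 10 UMIs, where the unadjusted exact permutation p was no longer under 0.05, and 9.76 points after every cell was thinned to 10000 UMIs.

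The denominator matters because the limits on Cilp, Fabp4, Pgr and Greb1 took out unequal numbers of cells. They removed 4.87% of the Pi16+ Dpp4+ fibroblasts in VCD_Low_PBDE and 37.6% in VCD_Low_E2. Of the 1727 removed cells, 47.1% had 5 or more UMIs of the 3 genes. As a share of the narrower gate, interferon-high cells made up 47.7% in VCD_Low_E2, 46.1% in VCD_E2, 42.3% in VCD_E2_P4 and 33.4% in VCD_Low_E2_P4, with VCD_Low_PBDE lowest at 4.42%. On that scale the mean P4 difference turned to -3.21 points. Counted over all Pi16+ Dpp4+ fibroblasts with no such limits, 56.0% of VCD_Low_E2 cells and 4.94% of VCD_Low_PBDE cells had 5 or more UMIs.

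Summed over those fibroblasts, the 3 rule genes gave 624 counts per 1000000 UMIs (CPM) in VCD_Low_E2, 525 in VCD_E2 and 486 in VCD_E2_P4, against 55.4 in VCD_Low_PBDE, 199.9 in VCD_Vehicle and 257 in VCD_High_PBDE. VCD_High_PBDE_E2 with 279 was close to VCD_High_PBDE on this scale. Cells were next pooled over the 12 libraries, in which Pi16+ Dpp4+ cells were 23.8% to 48.3% of fibroblasts. At equal depth, 15.1% of Pi16+ Dpp4+ fibroblasts, 9.81% of other fibroblasts and 5.84% of cells with Ptprc and little collagen had 5 or more UMIs of the 3 genes after thinning to 10000 UMIs. Without thinning the values were 26.7%, 13.1% and 5.62% at median depths of 19670, 15248 and 7552 UMIs. Shallower cells were left out of the thinned values, 565, 5205 and 3992 in the same order.

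Among the interferon-high cells the response had a long upper tail. There were 980 cells with 5 to 9 UMIs of the 3 genes, 610 with 10 to 19 and 557 (25.9%) with 20 or more. The share of the last group among the interferon-high cells of a library ran from 15.3% in VCD_Vehicle_NormEnv to 33.1% in VCD_High_PBDE, with 25.8% in VCD_E2 and 27.6% in VCD_Vehicle.

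Other interferon genes followed the same order of cells, which is a description because they respond with the genes of the rule. The cells with none of the 3 genes and those with 20 or more came from different libraries (28.2% and 76.7% of them from the 6 libraries with E2), so levels were compared within each library. Irf7, the transcription factor that amplifies the response, had 33.0, 103.9 and 194 CPM (lowest, median, highest library) in cells of the gate with none of the 3 genes and 202, 485 and 976 in cells with 20 or more. Bst2, which tethers budding virus, had medians of 346 and 966 and Rsad2, an antiviral enzyme, of 4.79 and 193. Mx1 had at most 0.99 with none and a median of 25.8 at the top. These 4 genes were higher in the top class in 12 of 12 libraries. The receptor chains differed less, with medians of 25.9 and 27.3 for Ifnar1, higher in 8 of 12, and of 80.4 and 94.2 for Ifnar2, higher in 11 of 12. Ifi27, also on the interferon list, was lower in the top class in 12 of 12, with medians of 128.9 and 68.7, and the values at the top ran from 24.3 to 125 CPM. The top class held as few as 10 cells in a library.

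**Figure D2:**
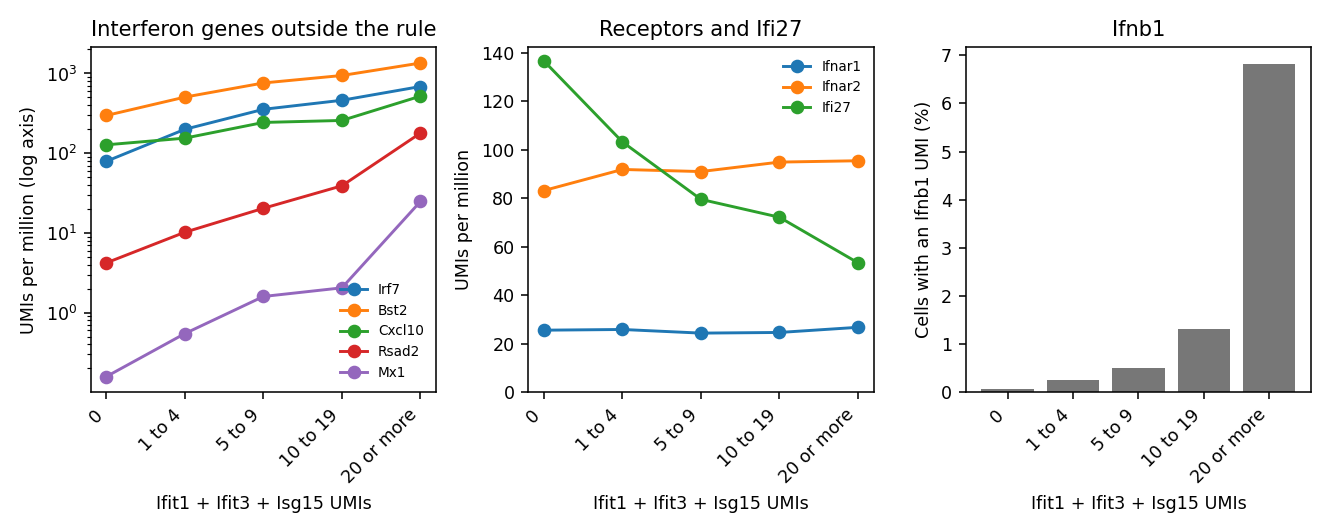
The x axis divides the 9374 cells of the gate by their summed UMIs of Ifit1, Ifit3 and Isg15, and the y axes give CPM over the cells of a class (left panel on a log axis, middle panel linear) or the percentage of cells with an Ifnb1 UMI (bars, right panel). Cells are pooled over the 12 libraries, which contribute unequally to the classes. In the pooled cells interferon genes outside the rule increased along the axis, the receptors Ifnar1 and Ifnar2 changed less, Ifi27 declined, and Ifnb1 was found in 6.82% of cells of the top class.

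Interferon-high and interferon-low cells of the same library were then compared gene by gene, to find what differed beyond the response itself. Within each library and depth decile equal numbers of both classes were drawn (1933 cells per class, 48 to 406 per library), so that median depths differed by at most 1.45%, and UMI sums were tested with edgeR with the library as a block. Outside the rule genes and the interferon list, 148 of 10540 genes rose in interferon-high cells (1.4%) and 131 fell (1.24%) at an adjusted p under 0.05. The median log2 difference of these genes was -0.01. These shares are the background for the list counts of this comparison below. A gene at low levels can pass the filter on low counts through 1 class alone, and its direction is then fixed. Of the 148, 121 would pass the filter in interferon-low cells alone, and of the 131, 124 in interferon-high cells alone. Of the 253 interferon list genes tested, of 342 listed, 150 were past the same threshold upward (139 of which would pass the filter in interferon-low cells alone), 9 downward and 94 were not past it, with a median log2 difference of 0.44. A list of this kind moves with the genes that chose the cells and is no independent support.

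The rule named Mx1, Ifit3b, Ifi44, Oas3, Rsad2, Tgtp2, Oasl1 and Pydc4 from the interferon list. Rsad2 alone of these would pass the filter on low counts in interferon-low cells alone, so no fold is given for the other 7. Mx1 had 4.30 to 17.3 CPM in interferon-high cells of the 12 libraries, with a median of 8.56, and at most 1.36 in interferon-low cells. The filter fixed the direction for Mx1, so its levels are a description only. Rsad2 had 37.7, 66.0 and 163 (lowest, median, highest) against 0.76, 5.07 and 15.3, without overlap (log2 difference 2.87). Several of these genes have close copies (Ifit3 and Ifit3b, the Tgtp pair), between which reads may be split. The members that went down included Ptgs2 and Tnfaip6, early inflammatory genes, and Mt2, a metallothionein, each lower in 11 or 12 of 12 libraries.

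The rule named 12 genes outside the list that rose, by size, level and a like direction in at least 10 of the 12 libraries. Csprs, a member of the Sp100 family, had the largest change. It had 30.7, 58.0 and 82.2 CPM (lowest, median, highest library) in interferon-high cells and 8.07, 22.1 and 29.9 in interferon-low cells, and the classes did not overlap over the libraries (log2 difference 1.35, SE 0.06, adjusted p = 1.4e-13). C130026I21Rik, at chr1:84992690-85270566 (GRCm38) near Sp100, Sp110 and Sp140, rose by 0.52 (SE 0.06, adjusted p = 1.2e-06). Sp100 itself, on the interferon list, rose by 1.06. The Sp100 family has near-identical copies on chromosome 1, so the division of reads among them is uncertain.

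Aftph, a protein of clathrin-coated vesicle traffic, had 57.1, 68.3 and 87.6 CPM in interferon-high cells against 22.1, 29.2 and 33.5. Every interferon-high value lay above every interferon-low value (log2 difference 1.23, SE 0.06, adjusted p = 7.5e-13). Tor1aip2, which encodes a nuclear envelope partner of torsins and also a short product known as interferon-responsive, rose by 0.67 (SE 0.05, adjusted p = 2.4e-10), from a median of 61.2 to 96.1 with no overlap. Plekha4, an adaptor with a lipid-binding domain, rose by 0.68, and Gdap10 by 0.73. Both were higher in 12 of 12 libraries.

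Plac8, a small cysteine-rich protein, was the most abundant by UMIs of the named genes that rose, though levels are not comparable between genes. It had 766 CPM in VCD_High_PBDE, a median of 1187 and 2720 in VCD_High_PBDE_E2_P4 in interferon-high cells, against 467, 781 and 1566 in interferon-low cells. The ranges overlapped between libraries, but Plac8 was higher in interferon-high cells within all 12 (log2 difference 0.64, SE 0.04, adjusted p = 1.2e-10). Apod, a lipid-carrying lipocalin, rose by 0.55 (SE 0.07, adjusted p = 9.8e-06), with 254, 413 and 976 against 225, 251 and 584. Both were highest in the 3 E2 + P4 libraries of each class.

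Wisp2 (also Ccn5), a matricellular protein, rose by 0.66 on the log2 scale (SE 0.13, adjusted p = 0.0013 in the edgeR fit) and was higher in 11 of 12 libraries. In VCD_Vehicle it had 109 CPM in interferon-high cells and 139 in the drawn interferon-low cells, but 81.4 in another draw and 40.6 over all interferon-low cells of that library. The call was lost at a limit of 3 UMIs, without cycling cells and in the 5 libraries of the first file code. The remaining genes of the group were AW112010 (0.59), a transcript known to be induced in activated immune cells, 1500015O10Rik (0.60, call lost in 3 of 28 alternatives), and Tcirg1 (0.52), a subunit of the vacuolar proton pump. AW112010 and Tcirg1 were higher in 12 of 12 libraries and held their calls under all 28 alternatives, as did Csprs, Aftph, Gdap10, Plekha4, Tor1aip2, Plac8, Apod and C130026I21Rik. The interferon list used here is broad but not complete, so genes outside it may respond to interferon too.

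The response element was sought in the starts of these genes. Of the 12 named genes that rose, 9 had a start region and 2 held a match, Plekha4 and Tcirg1. The Plekha4 match began 30 bases after a start and is not printed. The Tcirg1 match lies before 1 of its several starts, at chr19:3905231-3905430 on the minus strand of GRCm38.p6, and is shown because it has the same letters as a match in Ifit1.
Tcirg1: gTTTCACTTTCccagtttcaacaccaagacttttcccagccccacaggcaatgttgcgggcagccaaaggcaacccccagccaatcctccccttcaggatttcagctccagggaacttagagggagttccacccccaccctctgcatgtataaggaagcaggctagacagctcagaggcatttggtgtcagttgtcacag
Over all genes outside the list that rose, 7 of 99 with a start region held the element (7.07%), and of those that fell 4 of 94 (4.26%). The share was 3.05% over all tested genes outside the list and 45.4% over the interferon list genes that were higher.

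The genes that fell changed less. Mrgprg, an orphan receptor of the Mas-related family, had 10.3, 54.4 and 183 CPM in interferon-high cells and 16.5, 85.8 and 361 in interferon-low cells. The ranges overlapped between libraries, but interferon-high cells were lower in 12 of 12 (log2 difference -0.74, SE 0.10, adjusted p = 1.4e-05). In VCD_Low_PBDE, the library with the fewest interferon-high cells as a share, the values were 183 and 361. Daglb, a lipase that makes the endocannabinoid 2-arachidonoylglycerol, was also lower in 12 of 12, with medians of 101 and 140 (log2 difference -0.37, SE 0.05, adjusted p = 8.3e-06). In another draw of cells Mrgprg was higher in interferon-high cells of VCD_Low_E2 (76.76 against 73.5) and VCD_High_PBDE_E2 (59.23 against 59.15). Daglb was too in VCD_High_PBDE_E2 (166.2 against 165.9), so 12 of 12 depended on the draw for both genes. Both stand on the list of estrogen receptor targets, which was drawn in part from earlier results of these libraries, where 3 of 20 tested genes fell (Mrgprg, Daglb, Vegfa) and 2 rose (Wisp2, Figf). Both classes came from the same libraries, and the part of hormone response in these differences was not tested.

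Immediate early genes respond to tissue handling as well as to signals. Of 35 immediate early and heat shock genes tested, 6 fell (Nr4a3, Fosl2, Nr4a1, Junb, Klf4 and Btg2), none rose and 29 did not pass, with a median log2 difference of -0.07. Nr4a3, an orphan nuclear receptor, fell by 0.36 on the log2 scale in 11 of 12 libraries (SE 0.07, adjusted p = 0.0012). Fosl2, a subunit of AP-1, was lower in 12 of 12, with 217, 319 and 645 CPM against 222, 398 and 696 (log2 difference -0.26, SE 0.04, adjusted p = 1.3e-04). Both calls were lost in the first file code alone and at a limit of 10 UMIs. Ets2, another transcription factor that fell, was lower in 12 of 12 by 0.36 log2, and the glutathione enzyme Gclc, the mitochondrial gene Opa3, Enc1 and the sorbitol enzyme Sord fell by between 0.30 and 0.40. The call of Gclc was lost in 6 of 28 alternatives, those of Ets2 and Enc1 in 3 and those of Opa3, Sord and Nr4a1 in 2, the first file code alone and the limit of 10 UMIs among them for each. Ets2 and Gclc also lost theirs in the second file code alone.

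**Figure D3:**
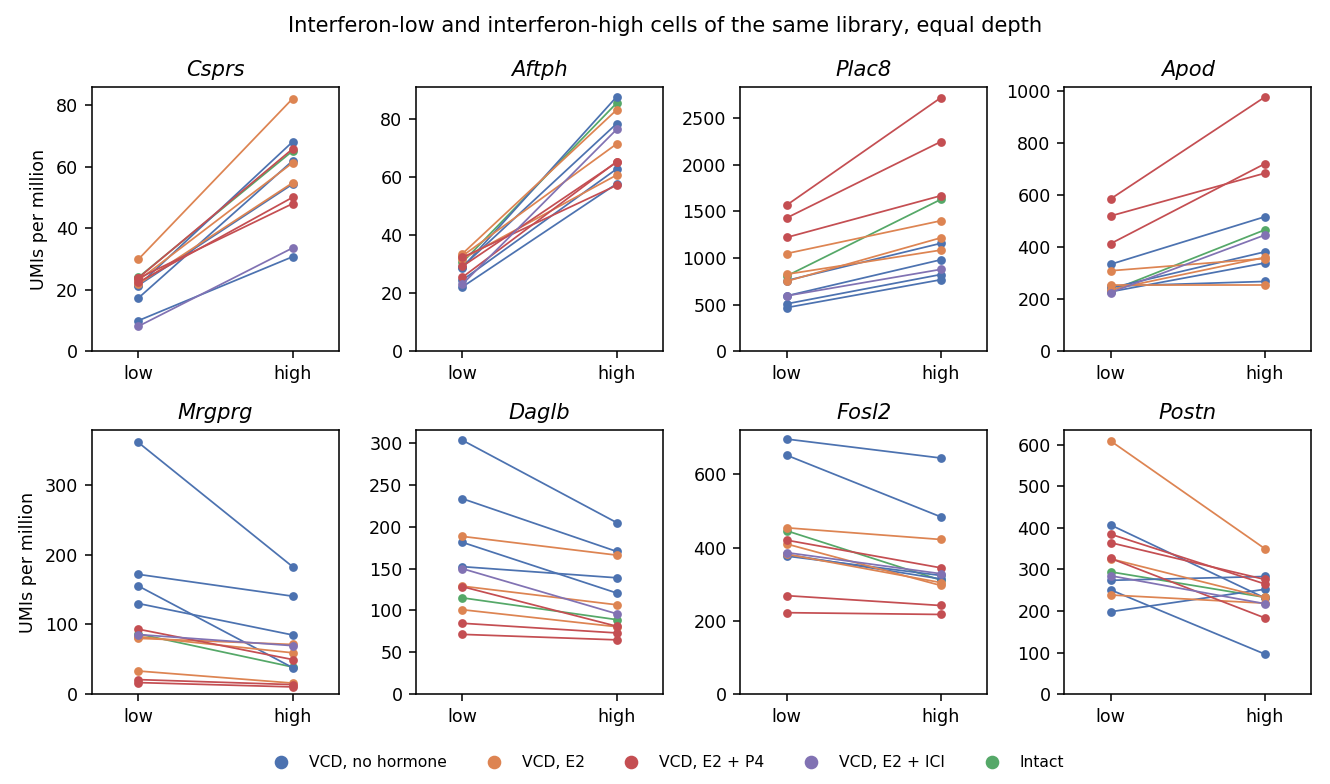
Each line joins the interferon-low and interferon-high cells of 1 library at equal depth, with CPM on the y axis and colours for the hormone state. In the draw of cells shown, Csprs, Aftph, Plac8 and Apod were higher in interferon-high cells in all 12 libraries. Mrgprg, Daglb and Fosl2 were lower in all 12 and Postn in 10 of 12. In another draw Mrgprg and Daglb were not lower in every library.

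Matrix genes were read beside the 1.4% and 1.24% of all genes outside the rule and interferon list that rose and fell. Of the matrix genes besides collagens 4.26% rose and 4.26% fell, and of the collagen chains 10% fell. Of 47 matrix genes tested besides collagens, 2 rose (Wisp2 and Serpinh1) and 2 fell, the hyaluronan synthases Has1 (-0.20) and Has2 (-0.32). Has2 had 61.6, 127 and 210 CPM in interferon-high cells against 81.5, 183 and 276, lower in 11 of 12 libraries (SE 0.06, adjusted p = 9.2e-04). The call of Has1 was lost in 4 of 28 alternatives and that of Has2 in 2. Of 20 collagen chains, Col14a1 (-0.15) and Col6a5 (-0.92) fell and none rose. The call of Col14a1 was lost in 3 of 28 alternatives. The 10 cells with most held 47.6% of the Col6a5 UMIs of interferon-high cells, and its call was lost under 12 of 28 alternatives.

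Markers of the study's fibroblast groups were read with lists taken in part from its descriptions, and the study chose them in part on these libraries. Of 18 markers of Fib_0, the Dpp4+ group, none passed the test, and of 9 of Fib_1, the adipogenic group, none did. At the shares over all genes (1.4% higher, 1.24% lower) lists of this length can hold no called gene. Of 11 markers of Fib_2, the matrix-rich group, 3 fell (Postn, Penk and Mdk). Tnc was also past the threshold, but passed the filter on low counts only through interferon-low cells, where 10 cells held 76.2% of its UMIs. Postn, the matricellular protein periostin, had 96.3, 233 and 350 CPM against 198, 310 and 610, and was lower in 10 of 12 libraries (log2 difference -0.48, SE 0.09, adjusted p = 0.0013), a call lost in the first file code alone. Penk and Tgfbi, also named by the rule, fell by 0.42 and 0.31, but lost their calls under 11 and 9 of 28 alternatives. Of 9 markers of Fib_3, Gas6 (0.49) and Fmo2 (0.42) rose, but Fmo2 lost its call in 14 of 28 alternatives and Gas6 in 2, the first file code alone and the limit of 10 UMIs.

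Secreted and complement genes outside the interferon list were read beside the same background, 1.4% higher and 1.24% lower. Of complement genes 22.2% rose, and of growth factors 3.70% rose and 7.41% fell. Of 22 chemokines and cytokines none passed, but at the background shares a list of this length can hold no called gene. Of 9 complement genes, C2, a protease of the classical pathway, rose by 0.42 (SE 0.07, adjusted p = 1.9e-04) and C4b, its partner in the C3 convertase, by 0.29, and 7 did not pass. Growth factors changed in 3 of 27, with Wnt5a (-0.27) and Vegfa (-0.24) lower and Figf, a lymphatic growth factor also called Vegfd, higher (0.26). Of 17 TGF-beta and myofibroblast genes, Tgfb2 rose (0.17) and Tgfbi fell. The call of Tgfb2 was lost in 12 of 28 alternatives, and that of Vegfa in 9 and that of Wnt5a in 5. In the 7 libraries of the second file code C4b (0.13, adjusted p = 0.45) and Figf (0.12, adjusted p = 0.50) did not pass. None of 13 steroid receptors and none of 21 cholesterol genes passed, lists also too short to read at the background shares. Of 21 genes of folding in the endoplasmic reticulum Atf4 fell (-0.15, call lost in 4 of 28 alternatives).

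Of the genes for interferons, their receptors and their signalling outside the interferon list, 12 of 47 could be tested and 1 was past the threshold. This was Ifnb1, which encodes interferon beta, but it could pass the filter on low counts only through the interferon-high class, so its fold and p are not given. In the drawn cells it had 0 to 4.92 CPM in interferon-high cells (median 1.82), and it was at 0 in the interferon-low cells of 9 libraries and at most 0.495 in the others. Over all interferon-high cells, the 10 with most held 51.9% of its UMIs. It was found in 51 interferon-high cells (2.38%) with 108 UMIs, 21 of them with 2 or more and 1 with 17. Among interferon-low cells it was found in 11 of 7227 (0.152%), each with 1 UMI, and among the other 24335 fibroblasts in 41 (0.168%). The median depths of the interferon-high and interferon-low cells were 22245 and 18319 UMIs. VCD_E2_P4 held 21 of the 51 cells, VCD_Low_E2_P4 8, VCD_Low_E2 7 and VCD_High_PBDE_E2_P4 6, and none was found in VCD_Vehicle (0 of 87, which allows up to 3.45% of cells with a UMI) or VCD_High_PBDE (0 of 121, up to 2.48%).

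Pooled over the libraries, interferon-high cells with Ifnb1 had a median of 38 UMIs of the 3 rule genes, against 10 in those without Ifnb1. The median depths were 23124 and 22204 UMIs. The rule cut on these 3 genes, and VCD_E2_P4 held 21 of the 51 cells with Ifnb1, so the medians are a description only. None of the 51 was marked as a doublet. Outside the fibroblast gate, 22 of 12548 cells had Ifnb1, with 136 UMIs. The receptor genes Ifnar1 (log2 difference -0.02), Ifnar2 (0.03), Ifngr1 (0.04) and Ifngr2 (-0.07) did not pass the test.

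Cell cycle genes need a separate reading because few cells carried them. Of 21 tested, 7 were past the threshold, but 6 of them (Ccnb1, Cdk1, Ube2c, Top2a, Birc5 and Cenpa) passed the filter on low counts only through interferon-high cells. The remaining gene, Stmn1, was higher in 5 libraries and lower in 7, so no direction is given for the list. The 10 cells with most held 96.2% of the Ccnb1 UMIs of the interferon-high class. With 3 or more UMIs over 13 cycle genes, 22 interferon-high cells (1.02%) and 17 interferon-low cells (0.235%) were counted, of which VCD_E2 held 9 and 4 and VCD_Low_E2_P4 held 7 and 1. No library had more than 2 such interferon-high cells besides these, and 7 libraries had none. DESeq2 did not call Ccnb1, Cdk1 or Ube2c.

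Markers of other cell types were read in both classes. The macrophage and dendritic cell list summed to 10.0 to 30.9 CPM in interferon-high cells and 16.8 to 100 in interferon-low cells, and none of the 3 genes that would pass the filter in both classes was called. C1qa and Tyrobp were past the threshold, but passed the filter only through interferon-low cells, so no direction is given for them. Lymphocyte markers summed to at most 4.30 and 4.41 and none could be tested. Of 3 endothelial and pericyte markers tested Kdr rose (0.49, call lost in 8 of 28 alternatives), and the list summed to 11.1 to 64.5 against 12 to 83.2. Epithelial markers summed to 92.5 to 204 against 89.0 to 228, and Schwann cell and adipocyte markers to 29.7 to 48.4 against 25.2 to 43.1, with no call among 2 tested genes of each. The part of other cells in any difference was not tested.

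Gene levels within the interferon-high cells, apart from their share, were next compared between libraries with and without E2. UMI sums of all interferon-high cells of the 9 layout libraries were fitted with edgeR, with PBDE level as a covariate, and the mean of E2 and E2 + P4 was set against no hormone. This fit leaves 4 residual degrees of freedom, and replicates are libraries of different PBDE exposure. Outside the rule and interferon genes, 29 of 10747 genes rose (0.27%) and 39 fell (0.363%). In interferon-low cells 190 of 11745 rose (1.62%) and 148 fell (1.26%), but these sums held more cells. With equal cells of both classes, chosen after seeing the data, 52 rose and 35 fell in interferon-low cells and 36 rose and 41 fell in interferon-high cells. In another draw the counts were 40 and 25, against 28 and 36. With the file code as a covariate the interferon-high counts dropped to 4 and 3 and the interferon-low counts to 15 and 7.

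Ctla2a, a cathepsin inhibitor, had the largest increase. In interferon-high cells it had 8.19, 6.74 and 5.50 CPM without hormone (no, low and high PBDE), 54.5, 8.69 and 32.5 with E2, and 884, 497 and 1063 with E2 + P4. Over all cells the layout groups did not overlap, but VCD_Low_E2 (8.69) stood close to VCD_Vehicle (8.19). In 2 depth-balanced draws VCD_Low_E2 had 6.39 and 5.95, below both VCD_Vehicle and VCD_Low_PBDE. Hormone-free VCD_Vehicle_NormEnv, outside the layout, had 16.6. The E2 + P4 libraries stood far above the E2 libraries, and the log2 difference with E2 was 4.61 (SE 0.39, adjusted p = 0.0015 in the edgeR fit). In interferon-low cells the difference was 4.16 (SE 0.37).

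Ggt5, an enzyme of glutathione and leukotriene turnover, had 34.8, 12 and 11.9 without hormone, 90.3, 49.5 and 67.4 with E2 and 62.2, 52.5 and 109 with E2 + P4 (log2 difference 1.89, SE 0.32, adjusted p = 0.035). Gpx3, a secreted glutathione peroxidase, went from 1133, 1076 and 1236 to 1617, 1508 and 2193 with E2 and to 3528, 3108 and 5741 with E2 + P4 (log2 difference 1.19, SE 0.12, adjusted p = 0.0055). Every E2 library stood above every layout library without hormone for both genes. Outside the layout, hormone-free VCD_Vehicle_NormEnv had 1799 CPM of Gpx3, above VCD_E2 and VCD_Low_E2. The other named genes that rose were the chemokine Ccl8 (1.57), the protease inhibitor Timp1 (1.55), the collagen-modulating Cthrc1 (1.53) and the matrix proteins Ccdc80 (1.21) and Spon1 (1.07).

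Among the genes that fell, Tgfbi, a matrix adhesion protein, had 63.5, 52.4 and 65.6 CPM without hormone, 16, 14.6 and 25.3 with E2, and 23.5, 40.3 and 31.2 with E2 + P4 (log2 difference -1.38, SE 0.18, adjusted p = 0.015). Ces1d, a carboxylesterase, had 60.4, 44.9 and 51.8, then 15.8, 18.8 and 13.9, then 42.5, 38.9 and 29.9 (log2 difference -1.12, SE 0.13, adjusted p = 0.0080). Neither gene overlapped between layout libraries with and without hormone. Tgfbi and Ces1d both stood lower with E2 alone than with E2 + P4 in each of the 3 PBDE levels. The share of all genes without such overlap was not counted. Sdpr (-1.08), a caveola protein, the protease Pcsk6 (-1.01), Sema4c, Casc4 (-0.96) and the CCN family gene Ctgf (-0.95) also fell. Only Ctla2a, Igfbp3 and Ces1d, of the 16 named genes, held their calls under all 20 alternatives, and none of the 16 changed direction. The others lost theirs in 1 (Gpx3) to 11 (Sema4c) of 20, and 12 of the 16 did so with the file code as a covariate and 12 without VCD_Low_PBDE.

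Igfbp3, which binds insulin-like growth factors, was the gene outside the interferon list whose E2 effect passed the test of a difference between the classes, a call that depended on which cells were drawn. In interferon-high cells it had 245, 129.5 and 216 CPM without hormone, 59.8, 44.1 and 59.7 with E2, and 117, 106 and 138 with E2 + P4 (log2 difference -1.26, SE 0.11, adjusted p = 0.0015). The ranges overlapped only where VCD_High_PBDE_E2_P4 (138) stood above VCD_Low_PBDE (129.5). In interferon-low cells the values were 121.5, 85.1 and 112, then 82.6, 73.9 and 75.9, then 107, 96.3 and 120.3 (log2 difference -0.20, SE 0.08, adjusted p = 0.22). The difference of the 2 effects was -1.01 (SE 0.18, adjusted p = 0.030 in the edgeR interaction). Over all libraries the 10 cells with most held 19.3% of the Igfbp3 UMIs of interferon-high cells and 6.01% of those of interferon-low cells. The hormone-free layout libraries held 87, 57 and 121 interferon-high cells. In the interferon-high cells of VCD_E2_ICI (48 cells) Igfbp3 stood at 584, in Intact at 222 and in VCD_Vehicle_NormEnv at 148. In interferon-low cells of the same libraries it stood at 323, 103 and 117, so VCD_E2_ICI was high in both classes. With equal numbers of both classes per library and depth decile, an alternative chosen after seeing the data, Igfbp3 in the interferon-low cells of VCD_Vehicle was 319 CPM in one draw and 132.5 in another, and the difference of the effects was -0.42 (adjusted p = 0.90, edgeR) and -1.07 (adjusted p = 0.047). The call of the interaction was also lost at a limit of 3 UMIs and without any 1 of VCD_Vehicle, VCD_Low_PBDE, VCD_High_PBDE, VCD_E2 or VCD_High_PBDE_E2, with log2 differences between -1.13 and -0.42 over all 20 alternatives.

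**Figure D4:**
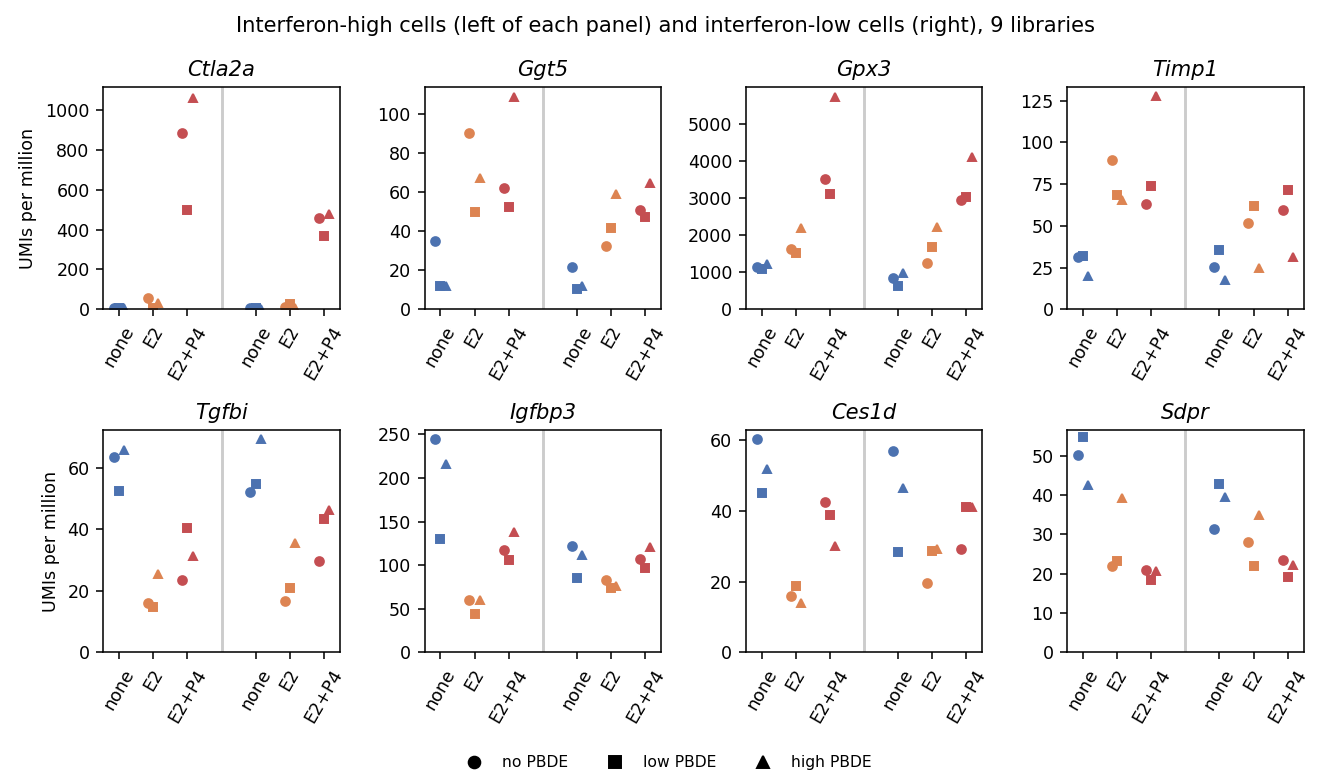
The y axes give CPM in the 9 layout libraries, with interferon-high cells at left and interferon-low cells at right of each panel, by hormone on the x axis and PBDE level by symbol. Ctla2a was highest in the 3 E2 + P4 libraries in both classes, and Igfbp3 fell from 245, 129.5 and 216 to 59.8, 44.1 and 59.7 with E2 in interferon-high cells.

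Over all genes outside the rule and interferon list, the edgeR interaction called 0 of 11826 genes (0%) with a higher log2 effect of E2 in interferon-high than in interferon-low cells and 1 (0.00846%), Igfbp3, with a lower one, that is, a stronger fall. At an unadjusted p under 0.05 the counts were 294 and 323 of 11826. Together they were near the share that this threshold passes when no gene differs. DESeq2 called 0 and 2 at an adjusted p under 0.05. In interferon-low cells 52 of 260 tested list genes rose with E2 and 2 fell, with a median log2 difference of 0.25, while in interferon-high cells 15 of 255 rose and 3 fell, with a median of 0.05. The interaction called 9 of 267 list genes with a lower log2 effect of E2 in interferon-high cells and none with a higher one. With equal cells of both classes, 24 of 243 list genes rose in interferon-low cells and 17 of 253 in interferon-high cells (medians 0.22 and 0.07), and in another draw 22 of 240 and 15 of 254 (0.26 and 0.08). Outside the rule and interferon list 52 of 10263 and 36 of 10356 genes rose in these fits, and 40 of 10286 and 28 of 10357 in the other draw. The interaction then called 5 of 253 list genes in the first draw, 4 of the 9 among them, and 2 of 255 in the other, both among the 9. Both classes were cut on interferon genes, so these counts are no independent support. The limit of 5 UMIs sets a floor under one class and a ceiling over the other, and its part in this difference was not tested.

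The other lists were read beside the 0.27% and 0.363% of all genes outside the rule and interferon list that rose and fell with E2 in interferon-high cells. Of 47 matrix genes Timp1 and Cyr61 (0.57) rose and Ctgf fell, and of 21 chemokines Ccl8 rose. Ctla2a and Ggt5 also stand on the list of estrogen receptor targets, which was drawn in part from earlier E2 results of these libraries, so no count of that list is given here. Hspa1a (-0.91) was the only 1 of 35 immediate early and heat shock genes that passed. None of 12 steroid receptors, 19 cholesterol genes, 27 growth factors or 23 cell cycle genes passed. At the shares over all genes, lists of this length can hold no called gene, so this is no result about them. Of 21 collagen chains Col14a1 (-0.66) alone passed.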

How the data were processed

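Single-cell RNA-seq libraries (10x Chromium v3) were made from dissociated mammary glands, 1 library per group. The deposited files hold raw UMI counts per gene and cell, which the authors made with Cell Ranger 3.1.0 on mm10, per the submitters' processing notes. The matrices hold 27998 genes. Cells were kept from 500 genes and 1000 UMIs upward, with mitochondrial genes giving 5% of UMIs or less.

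The interferon-high cells, the gene lists and the tests were chosen with earlier results of these data known. The authors' cluster annotation was not used here. The cells with the highest doublet scores were marked, up to a preset quota of 0.8% per 1000 barcodes of the library. The quota came to 2.00% to 8.01% of cells per library. Marked cells were kept in the main values and removed in an alternative.

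UMIs were summed per library and class and tested with edgeR 4.0.16 (quasi-likelihood, TMM scaling, filterByExpr, Benjamini-Hochberg adjustment, R 4.3.3), with DESeq2 1.42.0 as an alternative. Levels are CPM, counts scaled to a total of 1000000 UMIs over the class in a library. Shares were compared with exact permutation tests (scipy 1.17.1), with 95% exact Clopper-Pearson intervals. Nothing says that a library came from 1 animal or several, so p-values measure the spread between libraries.

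Named genes outside the interferon list had an adjusted p under 0.05, at least 20 CPM in the higher class and the same sign in at least 10 libraries. The 12 largest each way were taken, with the 8 largest of the interferon list and up to 3 called genes of each other list. For E2 the 8 largest each way were taken. Tested on simulated data with known changes of 1 on the log2 scale, the comparison of classes recovered 96.5% of changed genes (10805 genes), E2 in interferon-high cells 66.5% (11014), E2 in interferon-low cells 81% (12017) and their difference 60% (12105). The simulated libraries held no differences by PBDE, P4 or file code. Many named differences between the classes were smaller than 1, so these recovery values do not hold for them. Start regions are from RefSeq on GRCm38.p6, and gene coordinates are on GRCm38. Some items are not reported here.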

Additional observations from a re-analysis of the deposited data

Results flagged for a closer look

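The E2 effect differed between interferon-high and interferon-low cells, by the edgeR interaction test at an adjusted p under 0.05, for 10 named genes. For Igfbp3, outside the interferon list, the difference of log2 effects was -1.01 (SE 0.18, adjusted p = 0.030). The other 9 genes stand on the interferon list. Their differences were -1.88 for Rsad2, -1.05 for Plscr2, -1.01 for Gm4951, -0.95 for Herc6, -0.91 for Rtp4, -0.91 for Parp14, -0.87 for Iigp1, -0.73 for Irgm1 and -0.64 for Usp18. With equal cells of both classes 4 of these 9 passed in one draw and 2 in another. Parp14 was the 1 gene of the 10 whose call held under all 20 alternatives. For Igfbp3 it was lost in 1 of 2 depth-balanced draws of cells, where the difference was -0.42. The classes were cut on 3 interferon genes, and the part of that limit in these 9 differences was not tested.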

How the results depend on the processing

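The E2 difference in shares kept its direction under all alternatives run. Its unadjusted exact permutation p was no longer under 0.05 at a limit of 10 UMIs (10.4 points), and with a library left out it was 14.4 to 22.6 points, where the fewer arrangements cannot reach the threshold. It was 9.76 points with cells thinned to 10000 UMIs, 25.6 as a share of the narrower gate and 29.3 with no limits on 4 genes (Fabp4, Cilp, Pgr and Greb1). The P4 difference turned to -3.21 points as a share of the narrower gate and to -6.76 without those limits, an alternative chosen after seeing the data, and with a library left out it was 1.48 to 6.15. Low PBDE gave -7.43 to -3.78 and high PBDE -12.6 to -5.69 with a library left out, and -7.05 to -2.72 and -16.2 to -4.20 over the other alternatives, with the values nearest 0 after thinning. Between the classes, genes higher and lower numbered 83 and 97 with DESeq2, 365 and 484 with all cells and no depth balance, and 225 and 283 with no filter on low counts. They were 83 and 61 in the first file code alone, 89 and 55 in the second (both chosen after seeing the data), and the lower genes were 57 at a limit of 10 UMIs. With a library left out they were 103 to 148 and 101 to 164. For E2 in interferon-high cells the counts were 75 and 96 with DESeq2, 4 and 3 with the file code as a covariate, 10 and 20 at a limit of 10 UMIs, 52 higher at a limit of 3, and 186 and 185 with no filter. With a library left out they were 4 to 44 and 3 to 42, lowest without VCD_Low_PBDE. In interferon-low cells they were 15 and 7 with the file code, 52 and 35 or 40 and 25 in 2 draws of depth-balanced cells (chosen after seeing the data), 289 and 269 with no filter, and 17 to 389 and 7 to 319 with a library left out, lowest without VCD_Low_PBDE and highest without VCD_Vehicle. For the difference between classes they were 2 lower with DESeq2 and 2 with the file code, 1 and 4 at a limit of 10 UMIs, 0 lower at a limit of 3, 0 or 2 lower in the depth-balanced draws, 32 and 55 with no filter, and 0 to 1 and 0 to 3 with a library left out. Of 54 named genes between the classes, 22 kept their calls throughout, 32 lost them at least once and 0 reversed. Apart from the alternatives' own construction the cause was not tested. No pairing by replicate was possible because each group has 1 library, so the shared replicate number pairs no samples across groups. The classes were compared within libraries. Shares were compared within PBDE levels for E2 and P4 and within hormone states for PBDE, as described.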
